A study of Mus musculus with 4 samples.

Results

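RUNX1 peaks at 10 forkhead transcription factor genes were examined in the fetal mouse ovary. The genes were Foxl2, Foxp1, Foxp2, Foxp4, Foxo1, Foxo3, Foxk1, Foxk2, Foxj3 and Foxn3. Peaks were taken where the nearest transcription start site (TSS) of a curated RefSeq transcript, measured from the peak edge, was that of one of these genes, or where the peak midpoint lay inside the gene. This gave 12 of the 10494 peaks in the list, 10 by the nearest TSS and 2 by the gene body alone. The peaks come from chromatin immunoprecipitation with a RUNX1 antibody, followed by sequencing (ChIP-seq), in XX gonads of CD1 embryos at E14.5. Each of 2 ChIP experiments used chromatin from its own pool of 80 to 100 whole ovaries, according to the labels, and 2 input samples served as controls. The study's methods give a larger number of ovaries per ChIP than the labels do. The authors merged the 2 RUNX1 replicates before calling peaks, so each peak has 1 fold enrichment and 1 p-value, with no value per replicate and no known read number behind it. The comparisons here are therefore between peaks, or between genes, of 1 list, and none of them carries a replicate error. Whole ovaries hold germ cells and several somatic cell types, and a peak does not say in which of them RUNX1 was bound. A peak list also holds no transcript levels, so the labelled tissue could not be checked against marker genes.

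Forkhead factors share a winged-helix domain that contacts DNA, and members of the family build, maintain or restrain many cell types. FOXL2 is the family member best known in the ovary, where it keeps granulosa cells from taking on the fate of Sertoli cells, their testicular counterparts. RUNX factors bind DNA through the runt domain together with the partner protein CBFB, at a short core that appears as TGTGGT or TGCGGT on one of the DNA strands. FOXO factors act downstream of insulin signalling, FOXP and FOXK factors are mostly described as repressors, and the others are less well studied in the gonad. A peak near a gene does not say whether RUNX1 controls it.

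The sequences of 5 peaks at these genes follow, and they do not show which bases RUNX1 contacted. They are given on the forward strand of mm10, 5′ to 3′, as read from the RefSeq genome GRCm38.p6, with matches to searched motifs in capitals. The peak upstream of Foxk1, chr5:142367378-142367677, was the only one of the 12 that held a RUNX core. The core is in capitals as ACCACA, the reverse complement of TGTGGT.
Foxk1: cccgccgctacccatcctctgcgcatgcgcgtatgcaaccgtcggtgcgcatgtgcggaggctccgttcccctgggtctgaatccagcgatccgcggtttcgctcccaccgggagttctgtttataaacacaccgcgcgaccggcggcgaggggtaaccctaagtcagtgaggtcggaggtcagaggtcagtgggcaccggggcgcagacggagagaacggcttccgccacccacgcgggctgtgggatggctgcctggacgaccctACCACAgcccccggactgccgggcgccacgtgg
The peak over the start of Foxl2 is shown from the start codon at its first base, chr9:98955661-98955888, because the bases before it are untranslated. It held none of the motifs searched.
Foxl2: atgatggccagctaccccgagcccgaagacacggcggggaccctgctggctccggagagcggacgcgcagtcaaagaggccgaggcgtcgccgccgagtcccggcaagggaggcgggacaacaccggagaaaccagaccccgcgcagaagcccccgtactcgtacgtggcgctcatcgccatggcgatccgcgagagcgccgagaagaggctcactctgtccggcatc
The peak upstream of the first Foxp1 TSS, chr6:99521365-99521664, also held no match.
Foxp1: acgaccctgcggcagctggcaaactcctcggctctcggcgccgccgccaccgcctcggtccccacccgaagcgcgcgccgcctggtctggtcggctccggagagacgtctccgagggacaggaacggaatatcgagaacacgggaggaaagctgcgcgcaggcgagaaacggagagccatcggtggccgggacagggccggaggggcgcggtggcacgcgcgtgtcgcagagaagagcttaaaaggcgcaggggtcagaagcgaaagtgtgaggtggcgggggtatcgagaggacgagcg
The Foxk2 promoter peak, chr11:121259619-121259918, held the most kinds of match. In capitals, in order, are the SP/KLF site GGGCGG, the NR5A site AAGGTCA reversed, SP/KLF reversed and the NFY site CCAAT reversed.
Foxk2: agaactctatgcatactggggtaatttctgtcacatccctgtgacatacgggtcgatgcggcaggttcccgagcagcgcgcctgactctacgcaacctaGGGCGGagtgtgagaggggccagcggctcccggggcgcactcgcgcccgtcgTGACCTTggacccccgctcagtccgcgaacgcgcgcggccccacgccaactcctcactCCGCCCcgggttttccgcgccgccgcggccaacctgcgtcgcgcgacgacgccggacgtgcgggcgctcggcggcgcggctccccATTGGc
The Foxn3 peak closer to the start of that gene, chr12:99393111-99393410, lies in an intron by the curated models and held GGGCGG at 2 places.
Foxn3: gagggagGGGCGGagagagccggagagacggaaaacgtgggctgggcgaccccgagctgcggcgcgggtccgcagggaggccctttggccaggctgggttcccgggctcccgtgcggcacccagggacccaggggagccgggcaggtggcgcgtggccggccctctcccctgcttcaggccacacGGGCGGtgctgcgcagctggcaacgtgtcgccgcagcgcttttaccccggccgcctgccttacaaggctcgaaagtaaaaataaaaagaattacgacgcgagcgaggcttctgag

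RUNX1 peaks were found at 9 of the 10 genes, with Foxn3 counted only through its gene body. No share over all genes is given here for nearest TSS and gene body combined. By nearest TSS alone, 8 of the 10 genes had at least 1 peak. Over all 26180 genes with curated transcripts, 34.6% were nearest to a peak, and over the 21000 protein-coding genes 39.1%. Most of these forkhead genes are long. Among the 8 that exceed 50 kb, 6 were nearest to a peak, against 56.7% of the 4667 protein-coding genes of that length. A peak midpoint lay inside the body of 4 of these 8 genes, against 48.4% of long genes. Foxl2 and Foxp1 were each nearest to 2 peaks. At least 2 peaks were nearest to 5.37% of all genes and to 11.8% of the 34 other forkhead genes. Neither share was matched for gene length. Within 1 kb of a TSS of their own gene lay 8 of the 12 peaks. They belonged to 7 of the 10 genes, against 33.0% of all genes and 37.4% of protein-coding genes with a peak that close. In the whole list 76.0% of 10490 peaks on assembled chromosomes lay within 1 kb of a TSS. At the other extreme, 3 of the 12 peaks were over 10 kb from any curated TSS, against 15.9% of all peaks.

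The fold of these peaks, the enrichment ratio given in the list, ran from 4.10 to 12.19 with a median of 7.29. The sources used here do not say whether this ratio was taken against the input or against the signal around the peak. All peaks of the list had a median fold of 6.41, with quartiles of 5.02 and 8.89, and the list begins at 4.01. The 10 peaks assigned by nearest TSS, without the pair inside Foxn3, had a median of 6.17, below that of the list, so the side on which the forkhead median falls turned on the Foxn3 peaks. Of the 12 peaks, 6 had a fold of 8 or more, against 32.1% of all peaks, and 3 stayed under 5, against 24.3%. Foxk1, Foxp2, Foxn3, Foxo1 and Foxl2 had their strongest peaks above the upper quartile of the list. Foxp1 and Foxp4 stood near its lower limit, and Foxk2 and Foxj3 between. None of the 12 approached the highest fold of the list, 358.22.

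**Figure D1:**
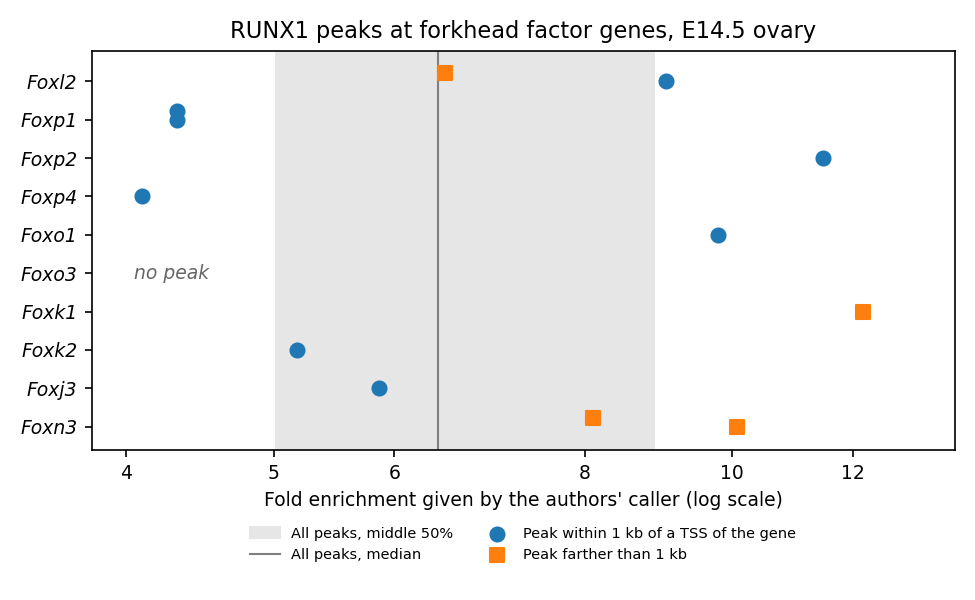
Fold enrichment on a log axis for each RUNX1 peak at the 10 forkhead genes, with 1 point per peak of the merged replicates and no error. Circles are peaks within 1 kb of a TSS of the gene and squares are farther peaks. The grey band and line are the quartiles (5.02 and 8.89) and median (6.41) of all peaks, and the points run from 4.10 at Foxp4 to 12.19 at Foxk1.

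Foxl2, the granulosa cell factor, is a gene with 1 exon that spans 2.52 kb on the forward strand of chromosome 9, from 98955607 to 98958126. Its first peak, chr9:98955589-98955888, covered the TSS and had a fold of 9.05 and a p-value of 5.39e-27. This fold was at or above that of 76.2% of all peaks. The peak ran from just before the TSS through the untranslated leader, and its midpoint lay in coding sequence. The second peak, chr9:98956734-98957033, began 1127 bp past the TSS. Its fold was 6.48, near the median of the list. It overlapped the end of the coding sequence, and its midpoint lay in the untranslated end of the same exon. A gap of 846 bp separated the peaks, and both were rich in G and C, at 69.7% and 70.7%.

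Foxl2os, a noncoding gene transcribed away from Foxl2 on the other strand, has its TSS at position 98955310, 279 bp from the first peak. By the curated RefSeq models the peak covers the TSS of Foxl2 and so belongs to it. GENCODE M21 starts Foxl2 further upstream, at 98955288. By those models the edge of the peak is 301 bp from the TSS of Foxl2 and 290 bp from that of Foxl2os, so that the nearest gene becomes Foxl2os. ChIP-seq carries no strand, and binding at one start cannot be told apart from binding at the other. The closest peak that belongs to another gene was 15.1 kb beyond Foxl2 and nearest to Faim (fold 6.66).

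The 3 FOXP genes each had a peak within 1 kb of a TSS, but of very different fold. FOXP factors act in lymphocytes, lung, heart and brain, and bind DNA as dimers. Foxp2 had a single peak, chr6:14901293-14901592, over its first TSS, with a fold of 11.48 and a p-value of 2.12e-22. The gene extends over 541 kb, and its second curated TSS, 284 kb away from the peak, had none near it. No other peak lay within 1220 kb of the one at the start. Soft-masked repeat sequence made up 39.0% of this peak, a share at or above that of 99.3% of all peaks, whereas it made up 9.0% or less of each of the other 11.

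Foxp1 had 2 peaks of the same low fold, 4.32, at the starts of different transcripts. The gene covers 596 kb on the reverse strand of chromosome 6 and has 4 curated TSSs. One peak, chr6:99521365-99521664, lay 372 bp upstream of the first of them, at the 5′ end of the longest transcript. The other, chr6:99028685-99028984, lay 387 bp upstream of the last TSS, that of the shortest transcript, which puts it in intron 4, 5 or 6 of the 3 longer ones. With predicted RefSeq transcripts included, this other peak covered a Foxp1 TSS at position 99028914. The 2 curated TSSs between the first and the last were 86.0 and 238 kb from the nearest peak. Though equal in fold, the peaks differed in p-value, 1.69e-14 at the first start against 5.12e-08 at the last. Ordered by p-value they were at 6169 and 9962 of the 10490 peaks.

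Foxp4 had the weakest of the 12 peaks, chr17:47924722-47925021, with a fold of 4.10 and a p-value of 1.43e-10. It lay 90 bp upstream of the single TSS shared by 3 transcripts. Only 2.4% of peaks had a fold as low or lower, so this peak passed the authors' 4-fold limit by a small margin.

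Foxo1 and Foxo3 encode the pair of insulin-responsive FOXO factors best known in the ovary, where FOXO3 holds primordial follicles at rest and FOXO1 is a factor of growing granulosa cells. Only Foxo1 of the pair had a peak. It had a fold of 9.79 and a p-value of 4.33e-24, at chr3:52268357-52268656, and began 20 bp downstream of the TSS with its midpoint in the untranslated leader of exon 1. The nearest peak to the Foxo3 TSS lay 202 kb away, nearest to Afg1l, with a fold of 4.10. The list holds only peaks past the authors' limits, so Foxo3 is a gene without RUNX1 binding past those limits, not one shown to lack it. Fold differences between the genes of such a pair have no replicate error and were not tested.

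Foxk1 and Foxk2, which encode nutrient-responsive repressors with a forkhead-associated domain beside the forkhead domain, differed in where the peak lay. The Foxk1 peak was the strongest of the 12, with a fold of 12.19, at or above that of 88.5% of all peaks. Its p-value, 2.49e-56, was the 377th smallest of the list. It stood alone 33.8 kb upstream of the single curated TSS, with no other peak within 162 kb and none at the Foxk1 promoter. The Foxk2 peak lay 69 bp upstream of the TSS, in the usual place, with a fold of 5.18 and a p-value of 5.88e-12. With predicted RefSeq transcripts included, the nearest TSS to the Foxk1 peak became that of the predicted gene Gm31068, 1708 bp away.

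The Foxk1 peak was rich in CpG for a peak so far from a curated TSS. It held 34 CpG dinucleotides in 300 bases, at or above 95.8% of the 1673 peaks over 10 kb from a curated TSS. The ratio of CpG observed to that expected from its C and G content was 0.99, whereas the median was 0.37 for those distant peaks and 0.85 for the 7969 peaks within 1 kb of a TSS. Both Foxn3 peaks, also over 10 kb from a curated TSS, were rich in CpG too. Their CpG counts were at or above 84.9% and 93.3% of the distant peaks, with ratios of 0.83 and 0.88.

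Foxj3, whose product has been described in muscle and in male germ cells, had 1 peak over its first TSS, chr4:119539375-119539674, with a fold of 5.86 and a p-value of 2.46e-17. Its second curated TSS was 2.66 kb from the peak. Frg2f1, on the opposite strand, starts 606 bp from the same peak, so that both genes have a TSS within 1 kb of it.

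Foxn3, which encodes a repressor studied in cell cycle checkpoints, had 2 peaks 648 bp apart in intron 1 of its curated transcript. They were chr12:99392164-99392463, with a fold of 10.08 and a p-value of 6.32e-32, and chr12:99393111-99393410, with a fold of 8.10 and a p-value of 2.58e-20. Both counted only through the gene body, since they were 57.6 and 56.7 kb from the curated Foxn3 TSS and nearer, at 51.1 and 52.1 kb, to the noncoding gene 3300002A11Rik, which lies inside Foxn3. Other gene models place them quite differently. In GENCODE M21 and in the predicted RefSeq transcripts, Foxn3 has a TSS at position 99393072, between the 2 peaks and 39 bp from the second. The first was 609 bp from the nearest Foxn3 TSS by GENCODE and 526 bp by the predicted transcripts. By those, it also covered the start of the predicted gene Gm51999. With either of these sets of models, 10 of the forkhead peaks lay within 1 kb of a TSS of their gene, against 8 by the curated models.

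**Figure D2:**
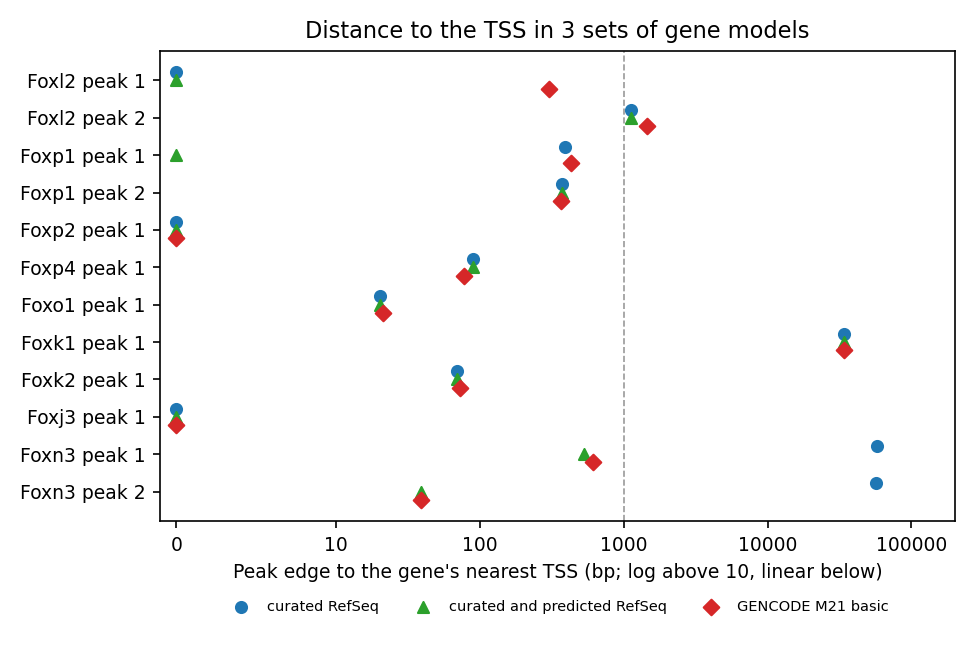
Distance in bp from the edge of each of the 12 peaks to the nearest TSS of its gene, on a scale that is logarithmic above 10 bp, with 0 for a peak that covers the TSS. Symbols are curated RefSeq, curated with predicted RefSeq, and GENCODE M21 basic transcripts, and the dashed line marks 1000 bp. The 2 Foxn3 peaks move from over 50 kb to under 1 kb between models, whereas the Foxk1 peak stays at 33820 bp in all 3.

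RUNX cores were rare in these peaks. The core, TGTGGT or TGCGGT on either strand, lay in 1 of the 12 as TGTGGT and in none as TGCGGT. In the whole list TGTGGT lay in 19.5% of peaks and TGCGGT in 23.7%, and one or the other in 39.9%, against 22.7% of the 20980 windows of equal length placed 1 kb to either side of each peak. None of the 8 peaks within 1 kb of a TSS held it (34.2% of all such peaks), and 1 of the 3 peaks over 10 kb from any curated TSS did (61.1%). Peaks of the same range of GC content as the 12, from 59.0% to 73.0%, held it in 35.1% of cases. The flanking windows of the 12 were also poor in cores, with 2 of 24. A count of 1 among 12 peaks is small, the genes were chosen with results of this list known, and the difference was not tested.

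The single core in the Foxk1 peak was at chr5:142367645-142367650, 120.5 bp from the midpoint and so close to the edge. Of the 5193 cores in all peaks, 80.1% lay within 100 bp of the midpoint. In the central 150 bp of the 12 peaks no core was present (28.1% of all peaks), and in windows widened to 500 bp 2 of 12 held one (48.4%). The second was beside the downstream Foxl2 peak, 190.5 bp from its midpoint. Within 2 kb of the midpoint, 11 of the 12 had a core, as did 10198 of all 10490 peaks. The median distance was 606.5 bp for the 11 and 250.5 bp for the 10198. The Foxp1 peak by the last curated TSS of that gene had none within that reach.

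The forkhead letters searched, TGTTTAC or TATTTAC, were absent from all 12 peaks, as they were from most of the list, where 3.24% of peaks held one. Other forms of the forkhead site were not searched. No peak of the 12 held the ETS site CCGGAAG (12.3% of all peaks), the GATA site AGATAA or TGATAA (8.33%), the TEAD site GGAATG (10.8%) or the CTCF consensus (1.35%). The SP/KLF site GGGCGG, common in promoters, lay in 6 of the 12, those of Foxp2, Foxo1, Foxk2, Foxj3, the second of Foxl2 and the second of Foxn3, against 57.0% of all peaks. The NFY site CCAAT lay in the Foxk2 peak and at 2 places in the first Foxn3 peak, so in 2 of 12, against 23.5%. The NR5A site AAGGTCA, read by the nuclear receptors SF1 and LRH-1, lay in the Foxk2 peak, 5 bp from its midpoint, and in 3.99% of all peaks. No site searched contains another in its letters, and every site was searched on both strands. A missing match says only that these letters were not in the window.

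**Figure D3:**
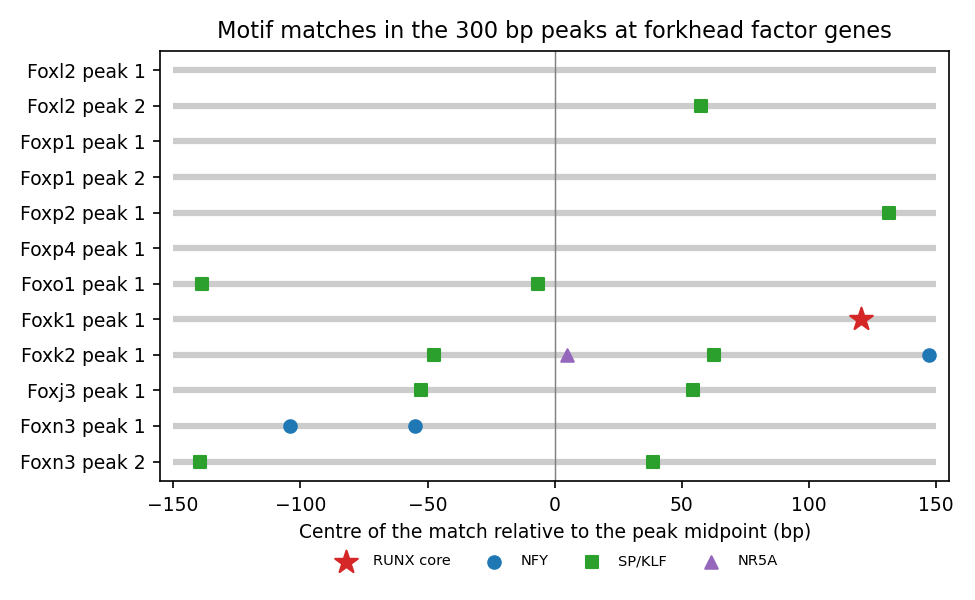
Centres of motif matches relative to the peak midpoint in bp, along the 300 bp of each of the 12 peaks (grey bars), for the RUNX core and the NFY, SP/KLF and NR5A sites. The 1 RUNX core lies 120.5 bp from the midpoint of the Foxk1 peak, and 4 peaks, the first of Foxl2, both of Foxp1 and that of Foxp4, hold no match.

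RefSeq promoter windows, which run from 250 bases before to 50 after a TSS, were matched for 8 of the 10 genes, all but Foxp2 and Foxk1, at 10 TSSs. The 10 genes have 15 curated TSSs, 7 of them without a peak within 1 kb, and no share over all curated TSSs is given here. Several of those 7 have no window, so their GC content is not given here. Among the matched windows, those with a peak were richer in G and C than those without, with 1 exception. Over all 32851 such windows, 69.1% of those with at least 70% G and C had a RUNX1 peak within 1 kb of the TSS, against 11.9% of those under 60%. Of the forkhead windows, 6 had at least 70%, and 5 of these had a peak: Foxk2 (79.3%), the last TSS of Foxp1 (75.3%), Foxj3 (75.0%), Foxl2 (71.3%) and Foxp4 (70.3%). The exception was Foxo3, at 75.0% and without a peak. The windows of Foxo1 (61.3%) and of the first Foxp1 TSS (60.3%) had peaks, against 55.0% of all windows from 60% to 70%. The 2 windows under 60% had none, the curated Foxn3 TSS at 52.7% and an inner Foxp1 TSS at 48.7%. A RUNX core lay in 1 of the 10 windows, that of the first Foxp1 TSS, against 22.4% of all windows, and the forkhead letters searched in none (6.54%). GC content moved with peaks over the whole list, and its part in which forkhead starts had one was not tested.

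**Figure D4:**
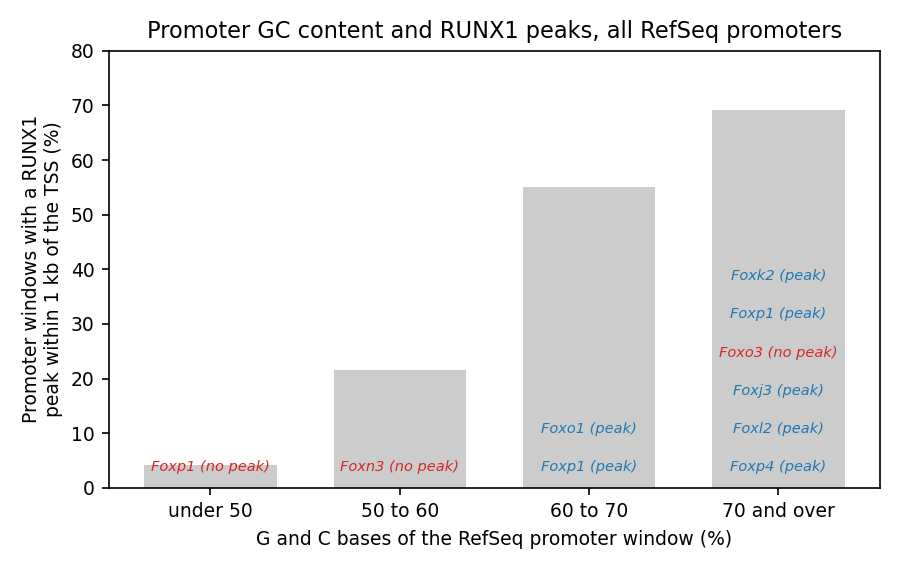
Share in percent of all RefSeq promoter windows with a RUNX1 peak within 1 kb of the TSS, in 4 classes of GC content (bars, 4.26% in the lowest class and 69.1% in the highest). Names are the windows of the forkhead genes in each class, with or without a peak, and their height carries no value. Foxo3 is the forkhead window without a peak in the highest class.

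Across the family, 21 of the 44 forkhead genes with curated transcripts (47.7%) were nearest to a RUNX1 peak. The share was 34.6% over all genes and 39.1% over protein-coding genes. The 21 include 8 of the 10 factors, which were chosen with results of this list known. Outside the 10 factors, 13 of 34 genes (38.2%) were nearest to a peak, close to the protein-coding share. They had 18 peaks between them, with a median fold of 6.57. The strongest stood 37081 bp from the TSS of Foxd1, a gene of the kidney stroma, with a fold of 18.51, and Foxd1 was nearest to 3 peaks. Foxa2, which encodes a pioneer factor of endoderm, had a peak of fold 11.72 at 6676 bp, Foxb2 one of 10.88 at 1111 bp and Foxq1 one of 9.26 at 1550 bp. Foxj2, the closest relative of Foxj3, had 2 peaks, the stronger with a fold of 10.37 at 9069 bp. Foxc1 had a peak of fold 5.06 at 5133 bp. The strongest peaks of the other 7 lay within 1 kb of their TSS. These were Foxi3 (8.23, over its TSS), Foxo6 (7.40), Foxb1 (7.07), Foxd2 (6.60), Foxe1 (6.55), Foxd3 (5.01) and Foxn2 (4.73), where the number is the fold.

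A RUNX core lay in 7 of the 18 peaks of these other genes, at the 6 genes Foxd1, Foxd2, Foxd3, Foxj2, Foxc1 and Foxn2. This is a share of 38.9%, beside 39.9% in the whole list. The 2 counts, 1 of 12 and 7 of 18, were not tested against each other. By subfamily, the Foxn2 peak, 26 bp from its TSS, held a core and neither Foxn3 peak did. Of the 2 Foxj2 peaks 1 held a core, and the Foxj3 peak did not. Foxo6 had a peak 425 bp from its TSS that held no core, like the peak of Foxo1. Foxo4, like Foxo3, was nearest to no peak. Foxp3, the factor of regulatory T cells, was the FOXP gene without a peak.

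**Figure D5:**
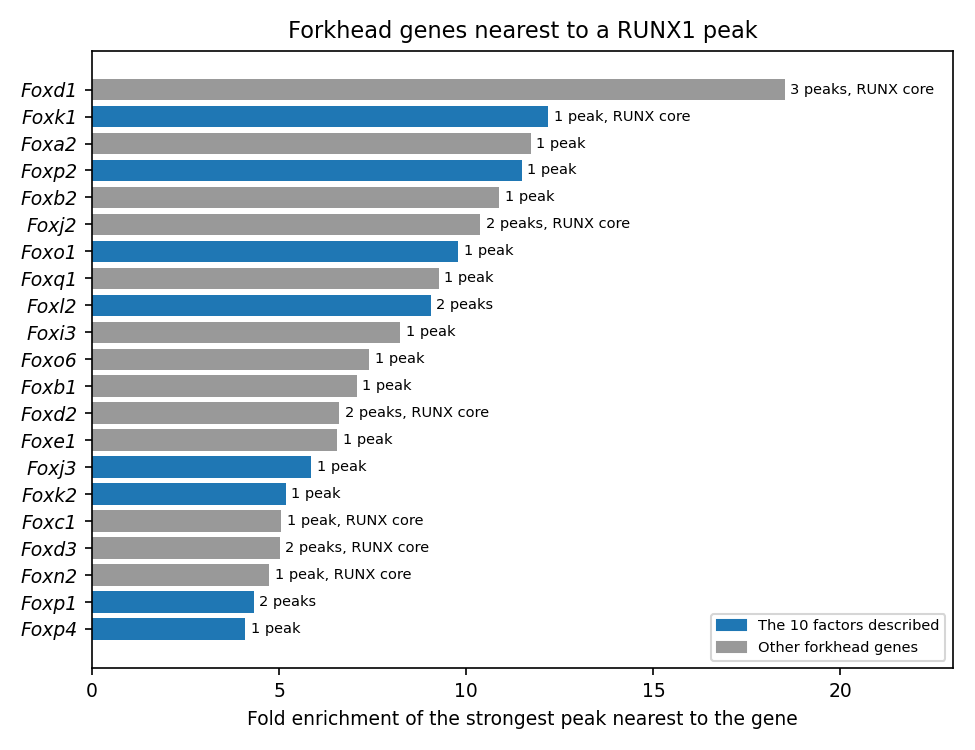
Fold enrichment of the strongest RUNX1 peak nearest to each of the 21 forkhead genes that had one, with bars from 0. Labels give the number of peaks and whether any of them held a RUNX core. The 8 bars of the factors described here run from 4.10 (Foxp4) to 12.19 (Foxk1), and those of the other 13 from 4.73 (Foxn2) to 18.51 (Foxd1).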

How the data were processed

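RUNX1 ChIP-seq was performed on pooled E14.5 CD1 ovaries, with 2 RUNX1 and 2 input samples. The authors mapped reads to unique positions of mm10 with Bowtie 1.2, removed duplicates with Picard 1.110, merged the RUNX1 replicates, called peaks with HOMER 4.9 and kept 300 bp peaks enriched 4-fold against both the input and the surrounding signal. These versions, and bedtools 2.24.0, stand in the submitters' processing notes. The deposited list gives a position, a fold (a ratio) and a p-value for each of 10494 peaks, joined as other text in 1 column, with no depth. The 4 peaks outside assembled chromosomes were left out.

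Peaks were assigned here to the nearest TSS of 45756 curated RefSeq transcripts of 26180 genes (GRCm38.p6, the assembly of mm10), from the peak edge and with ties kept, in Python 3.11.15 with pandas 2.3.3 and pysam 0.24.0. Positions count from 1, and motifs were matched exactly. The assignment was checked on simulated peaks. Of the motifs, only the RUNX core was checked, by planting it in simulated sequences of A and T. Such sequences cannot hold a core by accident, so this covers only whether planted cores were found. The text names the 10 genes, every other forkhead gene nearest to a peak, and genes that share a peak with them. Foxo4 and Foxp3, which had no peak, and Faim and Afg1l, nearest to the closest peaks outside, were named after their values were seen. The members and lists were chosen with earlier results of these data known, so no test was run. Alternatives changed the gene models, the distance rule, the motif window and the limits on fold and p-value.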

Additional observations from a re-analysis of the deposited data

How the results depend on the processing

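Of 34 alternatives, 4 were added after seeing the data, those with GENCODE M21 transcripts. With these, with predicted RefSeq transcripts or with distances from the peak midpoint, the counts stayed within 1.5 times. The genes changed with the gene models. Foxn3 came in with both other sets of models, Foxk1 dropped out with predicted transcripts and Foxl2 with GENCODE. Stricter peaks lowered the counts of genes and peaks, but not that of peaks with a RUNX core. With fold at least 8, 4 of the 10 genes were nearest to a peak, 6 peaks were left, 3 of them within 1 kb of a TSS, and 10 of the 44 forkhead genes had one. With p under 1e-20 these counts were 4, 6, 3 and 12. When every TSS within 50 kb counted, 34 of the 44 forkhead genes had a peak. Shares of all genes under these limits and this distance rule were not computed. These counts therefore do not say whether forkhead genes differ from other genes. The count of 1 peak with a RUNX core became 0 with TGCGGT alone or the central 150 bp, and 2 with a window of 500 bp. The median fold of 7.29 became 6.17, below the 6.41 of all peaks, without the gene body peaks and 9.05 with the strongest peak of each gene. No paired analysis was possible because the replicates were merged before peaks were called, and for the same reason neither replicate could be left out. Depth limits which peaks exist, and the reads behind any peak are unknown.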
